A study of Mus musculus with 21 samples.

Results

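Ttr and Slco1a4 encode a plasma carrier and a membrane transporter, and they are 2 of the 46 genes in the expression tables analysed here. They were chosen by name, because both proteins carry thyroid hormone and are known from the retinal pigment epithelium. Earlier results of these data were known when they were chosen. Expression was measured by RNA-Seq of polyadenylated RNA from single retinas of wild type C57BL/6 mice. The study asked how the retina changes with age around birth and after optic nerve crush (ONC). The ONC groups were E20_ONC (3 libraries), P1_ONC (3) and P3_ONC (4), in which the optic nerve was pinched for 5 s with forceps at 0.5 mm from the eye and the retina was collected 6 h later, at embryonic day 20, postnatal day 1 or postnatal day 3. They were set against the uncrushed groups of the same ages, E20_NTC (3), P1_NTC (4) and P3_NTC (4), which makes 21 libraries in 6 groups.

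Each age was 1 litter, which means that differences between ages and between litters cannot be told apart. The pups were chilled on ice and anaesthetised for the crush, and no sham operation is described, so the crush and the procedure around it cannot be told apart. Each library is 1 retina, and the p-values measure the spread between retinas. The implied totals of assigned fragments were 14221911 to 19333818 per library, with a median of 16278966. The 46 genes took 0.0794% to 0.461% of them. The label of pigment epithelium could not be checked, because none of 10 defining markers listed for it, such as Rpe65, Best1 and Tyrp1, is among the 46 genes. The same was true of 3 endothelial markers and 2 blood markers, and these cell types were not analysed here.

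Ttr (ENSMUSG00000061808) is a protein-coding gene on the plus strand of chromosome 18, from 20665250 to 20674324 in mm10, with a counted length of 1219 bases. Its product, transthyretin, is secreted by liver, choroid plexus and retinal pigment epithelium. It carries thyroxine and, in a complex with retinol-binding protein, retinol. Slco1a4 encodes an organic anion transporting polypeptide, also called Oatp1a4, which lets bile acids, steroid conjugates and thyroid hormones into cells. It is known from liver and from the endothelium of the blood-brain barrier, and in the rat it has been described in the pigment epithelium. The pigment epithelium is a single sheet of cells that lies against the photoreceptors, outside the neural retina. It takes retinol from the blood and returns visual chromophore to the photoreceptors. Thyroid hormone is known to steer the differentiation of cone photoreceptors.

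Slco1a4 (ENSMUSG00000030237) is protein-coding, lies on the minus strand of chromosome 6, from 141805440 to 141856199 in mm10, and has a counted length of 6414 bases. In the reference annotation of mm10, 0 genes shared exon bases with Ttr and 0 with Slco1a4. Slco1a4 has close relatives in its family, and 0 of the 6353 windows of 150 bases in its transcript recurred in the transcripts of other Slco genes.

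The stretch just upstream of Slco1a4 is shown because the gene moved together with Ttr, a gene on another chromosome. It comes from RefSeq (GRCm38.p6, chr6:141856285-141856470, minus strand), runs 5′ to 3′ over 186 bases, and ends before the first annotated exon. Capitals mark the CCAAT box, read here as ATTGG.
Slco1a4 upstream: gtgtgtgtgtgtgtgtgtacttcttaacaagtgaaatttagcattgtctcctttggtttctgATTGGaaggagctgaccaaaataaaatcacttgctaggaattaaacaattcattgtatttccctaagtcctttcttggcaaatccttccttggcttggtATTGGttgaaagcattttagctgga
Both strands were searched for 5 motifs. CCAAT or ATTGG had 2 matches, and 26% of 32851 upstream windows of the same length hold at least 1 match. There were 0 matches to the MITF box CATGTG or CACATG (in 9.6% of windows), to CACGTG (3.9%), to the OTX2 core TAATCC or GGATTA (4.85%) and to the forkhead core TGTTTAC or GTAAACA (2.43%). These are matches of letters in a short window and say nothing of binding.

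Ttr was abundant in uncrushed retinas at P3 and far lower in every other group. The P3_ONC libraries had 4.54, 11.8, 10.2 and 17.5 FPKM of Ttr (fragments per kilobase of gene length, scaled to all assigned fragments of the library), against 124, 291, 396 and 159 FPKM in the P3_NTC libraries. At P1, Ttr had 0.773, 2.58 and 0.739 FPKM in P1_ONC replicates 1, 2 and 4, against 4.32, 4.74, 21 and 16.1 FPKM in P1_NTC. The ranges of ONC and NTC were apart at both ages. At E20 they overlapped, with 1.93, 6.25 and 0.825 FPKM in E20_ONC and 0.339, 1.07 and 2.67 FPKM in E20_NTC. These levels rest on 15 to 348 fragments in each ONC library of any age, against 8 to 6873 fragments in each NTC library.

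Slco1a4 followed the same order at a far lower level. It had 0.027, 0.118, 0.0924 and 0.153 FPKM in P3_ONC, against 1.00, 2.49, 3.71 and 1.23 FPKM in P3_NTC. At P1, it had 0.0098, 0.0268 and 0 FPKM in P1_ONC replicates 1, 2 and 4, against 0.0361, 0.0184, 0.613 and 0.288 FPKM in P1_NTC. The P1 ranges overlapped, because P1_ONC replicate 2 lay above P1_NTC replicate 2. At E20, Slco1a4 was close to the limit of detection, with 1, 4 and 0 fragments in E20_ONC and 0, 0 and 2 fragments in E20_NTC. It had no fragment in 4 of the 21 libraries, and a count of 0 allows up to 0.0242 to 0.0313 FPKM in those libraries.

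**Figure D1:**
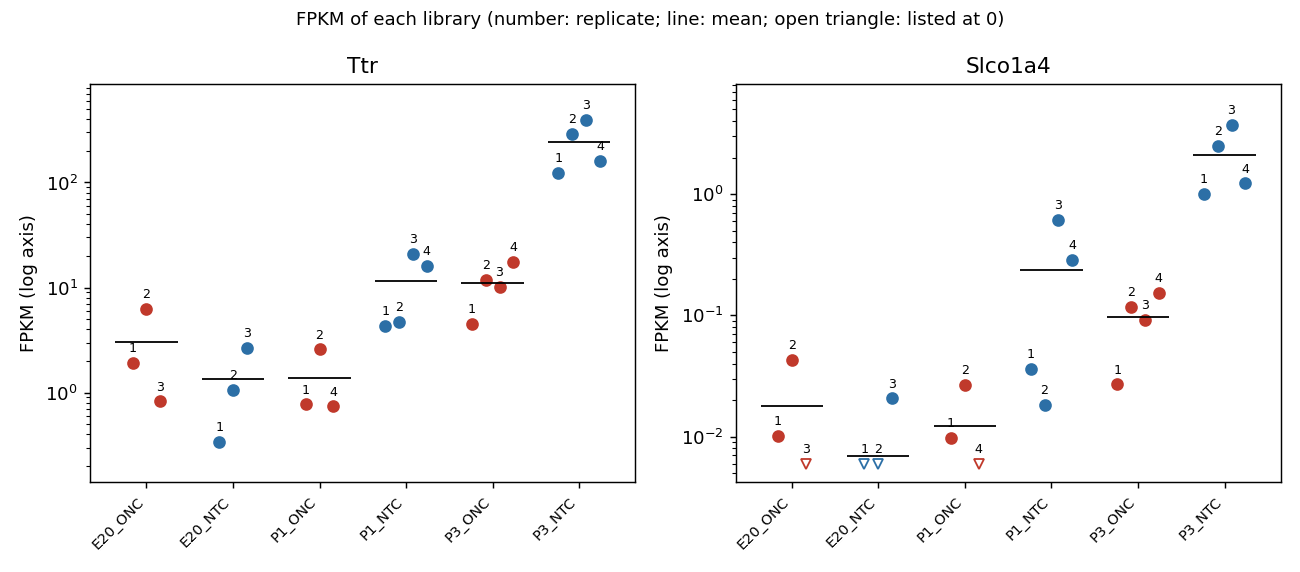
FPKM on a log axis of Ttr (left) and Slco1a4 (right) in each of the 21 libraries by group, with ONC in red, NTC in blue, replicate numbers beside the points, lines at the group means and open triangles for libraries listed at 0. The 4 P3_NTC libraries stand above all others in both panels, at 124 FPKM or more for Ttr and 1.00 FPKM or more for Slco1a4.

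The group means of Ttr put P3_NTC first, at 243 ± 130 FPKM (SD, n = 4). P1_NTC at 11.5 ± 8.4 FPKM (n = 4) and P3_ONC at 11 ± 5.3 FPKM (n = 4) came next, and their ranges overlapped. E20_ONC had 3 ± 2.9 FPKM, E20_NTC 1.36 ± 1.2 FPKM and P1_ONC 1.36 ± 1.1 FPKM (n = 3 each). These 3 lowest groups also overlapped, so their order is within the spread between libraries. They were not apart from the next 2 groups either. E20_ONC replicate 2, at 6.25 FPKM, lay above P1_NTC replicates 1 and 2 (4.32 and 4.74 FPKM) and P3_ONC replicate 1 (4.54 FPKM). For Slco1a4 the order was P3_NTC at 2.11 ± 1.3 FPKM, P1_NTC at 0.239 ± 0.28 FPKM and P3_ONC at 0.0974 ± 0.053 FPKM. E20_ONC at 0.0178 ± 0.023 FPKM, P1_ONC at 0.0122 ± 0.014 FPKM and E20_NTC at 0.0069 ± 0.012 FPKM followed. As for Ttr, P1_NTC and P3_ONC overlapped, and so did the 3 lowest groups. P1_NTC replicate 2, at 0.0184 FPKM, lay below E20_ONC replicate 2 (0.0432 FPKM) and P1_ONC replicate 2 (0.0268 FPKM).

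To ask what the crush did, ONC was tested against NTC within each age by edgeR's quasi-likelihood F test, over all genes of the table with at least 10 counts. A gene was called changed at a Benjamini-Hochberg adjusted p under 0.1 and a fold change over 1.5. At P3, Ttr and Slco1a4 were the only genes of the table called lower after ONC by this test. Ttr was 22.1-fold lower in P3_ONC than in P3_NTC (log2 fold change -4.46, SE 0.60, edgeR adjusted p = 0.000698). Slco1a4 was 21.4-fold lower (log2 fold change -4.42, SE 0.66, edgeR adjusted p = 0.000916). They ranked 1 and 2 by size among the 45 genes tested, whose median log2 fold change was -0.21. The genes called lower made 4.44% of those tested, and the pair is that 4.44%. The study took its ONC genes of E20 and P1 after removing those that overlapped with P3. Both the 4.44% and the ranks therefore depend on how the table was picked. Among all genes, the study itself reported many more as lower after ONC at P3. The single gene called higher was Gm39119, with a log2 fold change of 1.98. In these bulk libraries, fewer cells of a type and less RNA per cell cannot be told apart.

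The P3 difference did not rest on 1 library. Leaving out each library in turn gave log2 fold changes of -4.78 to -4.12 for Ttr and -4.73 to -4.00 for Slco1a4, with edgeR adjusted p-values of 0.000509 to 0.00504 and 0.000605 to 0.00573. The P3_NTC libraries it was measured against are also among those on which the study had picked both genes, for their rise with age, and the same holds for P1_NTC and E20_NTC. High values in P3_NTC were part of that choice, which by itself favours a lower value in P3_ONC. The edgeR p-values of ONC against NTC, at P3 and at P1, take no account of the choice.

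At P1 both genes were again lower after ONC. Ttr was 8.42-fold lower in P1_ONC than in P1_NTC (log2 fold change -3.07, SE 0.81, edgeR adjusted p = 0.0194) and ranked 5 by size among 43 genes. Slco1a4 was 18.1-fold lower (log2 fold change -4.18, SE 1.53, edgeR adjusted p = 0.0509) and ranked 3, with 4 fragments in all of P1_ONC and 110 in P1_NTC. At this age 27.9% of the genes tested were called lower. This share and the 4.44% at P3 depend on which genes the study picked. They therefore do not show at which age the pair stands further apart from other genes. The call of Slco1a4 was lost without P1_NTC replicate 3 (log2 fold change -3.10, edgeR adjusted p = 0.11), without P1_ONC replicate 1 (-4.06, adjusted p = 0.156) and without P1_ONC replicate 4 (-3.62, adjusted p = 0.152). It was also lost with the replicate number as a block (-2.44, edgeR adjusted p = 0.344) and with limma on log2(FPKM + 0.1) (-1.21, adjusted p = 0.172). The call of Ttr held without any 1 library, with log2 fold changes between -3.92 without P1_ONC replicate 2 and -2.61 without P1_NTC replicate 3.

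At E20 no difference in Ttr was detected. Its log2 fold change in E20_ONC against E20_NTC was 1.15 (SE 0.94, edgeR adjusted p = 0.34), and it was 0.04 without E20_ONC replicate 2. With detection of the Y-linked gene Kdm5d as a covariate it was 0.17. Kdm5d was absent from all 3 E20_ONC libraries and was detected in E20_NTC replicates 1 and 2. Of the genes tested at E20, 69.8% were called in either direction. Slco1a4 held 5 fragments in E20_ONC and 2 in E20_NTC, too few for the test. The ratio of these sums, scaled to library size, was 2.83 with a 95% interval of 0.464 to 29.7, which covers counting error only.

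**Figure D2:**
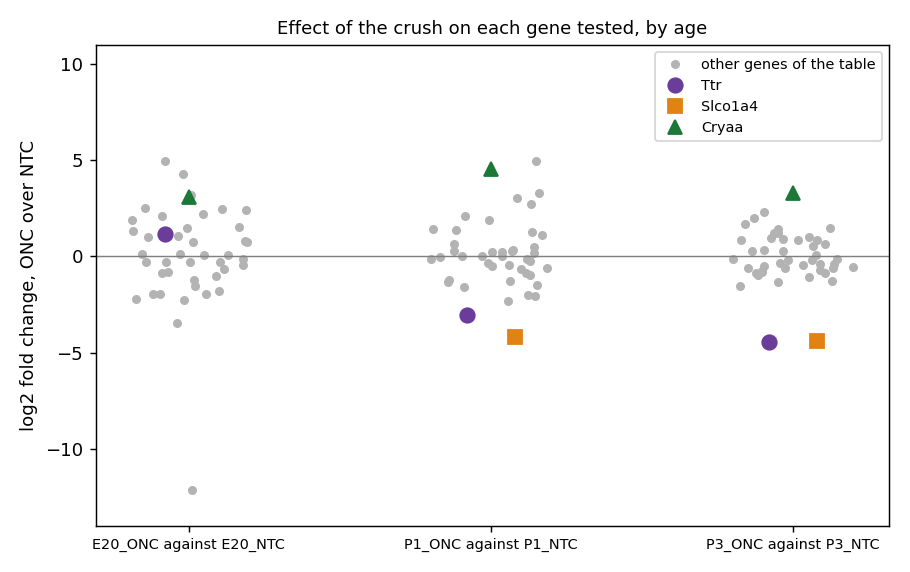
Log2 fold change of ONC over NTC for every gene tested at each age, with Ttr as purple circles, Slco1a4 as orange squares, Cryaa as green triangles and the other genes in grey (sideways scatter has no meaning). Ttr and Slco1a4 lie lowest of the genes of the table tested at P3, at -4.46 and -4.42, and Slco1a4 was not tested at E20.

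The effects of ONC were then set against each other between ages, as an interaction in the 4 groups concerned. Such a difference equals the change with age in ONC retinas less the change with age in NTC retinas. The study picked both genes on the NTC part, so the values are a description and no p is given for them. For Ttr the effect of ONC at P3 less that at E20 was -5.61 on the log2 scale (SE 1.12), and it was -4.50 to -6.56 on leaving out 1 library. For Slco1a4 it was -5.74 (SE 1.63), which rests on 7 fragments at E20 and was -4.18 without E20_ONC replicate 2 and -8.37 without E20_NTC replicate 3. The effect at P1 less that at E20 was -4.23 for Ttr (SE 1.32), at -3.11 without E20_ONC replicate 2 and -5.17 at the other extreme, and -5.50 for Slco1a4 (SE 2.63). With Kdm5d detection as a covariate, P1 less E20 was -2.86 for Ttr and -3.45 for Slco1a4. With the same covariate, P3 less E20 was -5.49 for Ttr and -6.10 for Slco1a4. The effect at P3 less that at P1 was -1.39 for Ttr (SE 0.91) and -0.25 for Slco1a4 (SE 1.60), and the sign for Slco1a4 turned on leaving out any of 5 single libraries. Of all genes of the table, edgeR called 10.9% lower for P3 less E20, 13.0% lower for P1 less E20 and 0% in either direction for P3 less P1. In the last of these DESeq2 called 9 genes, and 12 were under 0.05 in edgeR before adjustment.

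Age was compared next. In the uncrushed retinas both genes climbed steeply, and because the study placed them in the table for that climb, the NTC values are a description. Ttr was 8.53-fold higher in P1_NTC than in E20_NTC, 21-fold higher in P3_NTC than in P1_NTC, and 179-fold higher in P3_NTC than in E20_NTC. Without E20_NTC replicate 3, the log2 fold change of Ttr was 4.04 in P1_NTC against E20_NTC, in place of 3.09, and 8.43 in P3_NTC against E20_NTC, in place of 7.49. Slco1a4 was 8.74-fold higher in P3_NTC than in P1_NTC, a log2 fold change of 3.13, which was 4.20 without P1_NTC replicate 3. With Kdm5d detection as a covariate, P3_NTC against P1_NTC gave 6.21 for Slco1a4 and 5.74 for Ttr. Against the 2 fragments of E20_NTC, its 110 fragments in P1_NTC gave a ratio of 40.3 (95% interval 10.9 to 337) and its 857 fragments in P3_NTC a ratio of 334 (92.1 to 2760), for counting error only. Genes called higher made 37.8% of those tested from E20 to P1, 45.7% from P1 to P3 and 41.3% from E20 to P3, since the table was picked for genes that change.

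The crushed retinas had no part in that choice by the study, and there the age comparisons were tested. The pair itself was taken from the table with earlier results of these data known, and the p-values take no account of that. Between E20 and P1 no change was detected. Ttr had a log2 fold change of -1.13 in P1_ONC against E20_ONC (SE 0.85, edgeR adjusted p = 0.278), in a contrast where 68.9% of genes were called in either direction. Slco1a4 summed to 4 fragments in P1_ONC and 5 in E20_ONC, a ratio of 0.698 (95% interval 0.138 to 3.24), and was not tested. Between P1 and P3 both genes rose. Ttr was 8.01-fold higher in P3_ONC than in P1_ONC (log2 fold change 3.00, SE 0.67, edgeR adjusted p = 0.00479), and Slco1a4 was 7.34-fold higher (2.88, SE 0.91, adjusted p = 0.0195). Without P1_ONC replicate 2 these log2 fold changes were 3.85 for Ttr and 4.06 for Slco1a4. Here 41.3% of genes were called higher, with a median log2 fold change of 0.33 over all genes tested. Every P3_ONC library lay above every P1_ONC library for Ttr. For Slco1a4, P3_ONC replicate 1 and P1_ONC replicate 2 had 3 fragments each and were level, and the other P3_ONC libraries lay above all of P1_ONC.

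Over the whole interval the rise after ONC was less firm. Ttr was 3.66-fold higher in P3_ONC than in E20_ONC (log2 fold change 1.87, SE 0.75, edgeR adjusted p = 0.0535), and Slco1a4 was 5.21-fold higher (2.38, SE 0.94, adjusted p = 0.0469), where 43.5% of genes were called higher. The ranges overlapped for both genes, since P3_ONC replicate 1 lay below E20_ONC replicate 2. Both calls were lost on leaving out E20_ONC replicate 1, E20_ONC replicate 3 or P3_ONC replicate 4 (adjusted p = 0.114 to 0.15 for Ttr and 0.102 to 0.134 for Slco1a4). They were also lost with detection of the Y-linked gene Kdm5d as a covariate, at log2 fold changes of 0.60 for Ttr and 0.58 for Slco1a4. Kdm5d was absent from all 3 E20_ONC libraries and, of the P3_ONC libraries, was at or near 0 in replicate 1 alone. P1_ONC and P1_NTC carry another series of library numbers in the study's sample list than E20 and P3, so that series and age P1 cannot be told apart either. This limits the comparisons of P1 with E20 and with P3, in ONC and in NTC retinas, rather than P3 against E20.

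**Figure D3:**
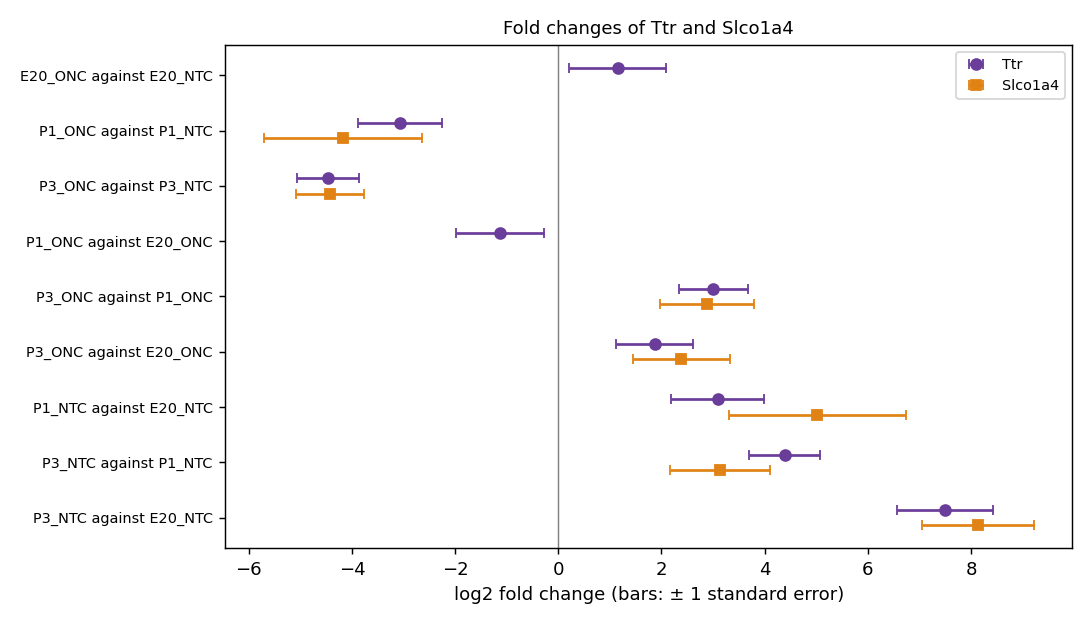
Log2 fold changes of Ttr (purple circles) and Slco1a4 (orange squares) with bars of 1 standard error, for ONC against NTC at each age and for the later against the earlier age in ONC and in NTC retinas. ONC against NTC is at -4.46 for Ttr and -4.42 for Slco1a4 at P3, and Slco1a4 has no point where it held too few fragments for the test.

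Ttr and Slco1a4 had nearly the same mean proportion in both P3 groups while their levels differed by more than 20-fold between these groups. Slco1a4 made 3.03%, 5%, 4.55% and 4.4% of the fragments of the pair in P3_ONC, against 4.06%, 4.31%, 4.69% and 3.9% in P3_NTC. The P3_ONC shares rest on 3, 11, 9 and 16 fragments of Slco1a4, with 95% Wilson intervals of single libraries reaching from 1.04% to 8.73%. The test below therefore does not show that the shares are equal. A share within a library does not depend on library size. The means were 4.24% ± 0.85 in P3_ONC and 4.24% ± 0.34 in P3_NTC (SD, n = 4 each), and the difference was 0.00555 percentage points (two-sided exact permutation test, p = 1, smallest p possible 0.0286). Over the summed fragments, the share was 4.43% in P3_ONC (95% Wilson interval 3.25% to 5.99%) and 4.34% in P3_NTC (4.07% to 4.64%).

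The proportion was less even at P1. Slco1a4 made 6.25%, 5.17% and 0% of the pair's fragments in P1_ONC, where 4 fragments of Slco1a4 leave wide intervals, and the 0 allows up to 18.8%. In P1_NTC it made 4.21%, 2%, 13.3% and 8.61%. The Wilson intervals of P1_NTC replicate 3 (10.7% to 16.3%) and replicate 4 (6.06% to 12.1%) lay above those of all 4 P3_NTC libraries, of which the highest bound was 5.2%. As groups, P1_ONC and P1_NTC did not differ in mean share beyond their spread (-3.22 percentage points, exact permutation p = 0.457, adjusted over 3 comparisons p = 0.686, smallest p possible 0.0571). The difference was -1.13 points without P1_NTC replicate 3 and -4.9 points without P1_NTC replicate 2. Over the summed fragments the share was 4.44% in P1_ONC (95% Wilson interval 1.74% to 10.9%) and 10% in P1_NTC (8.39% to 12%), where P1_NTC replicate 3 gave 75 of the 110 fragments of Slco1a4. P3_NTC and P1_NTC differed by -2.79 percentage points in mean share, also within their spread (exact permutation p = 0.371, adjusted p = 0.686), by -0.701 points without P1_NTC replicate 3 and by -4.47 points without P1_NTC replicate 2. At E20 the shares were 2.7%, 3.51% and 0% in E20_ONC, against 0%, 0% and 3.92% in E20_NTC, on 4 fragments of Slco1a4 or fewer per library. The intervals cover counting error only.

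**Figure D4:**
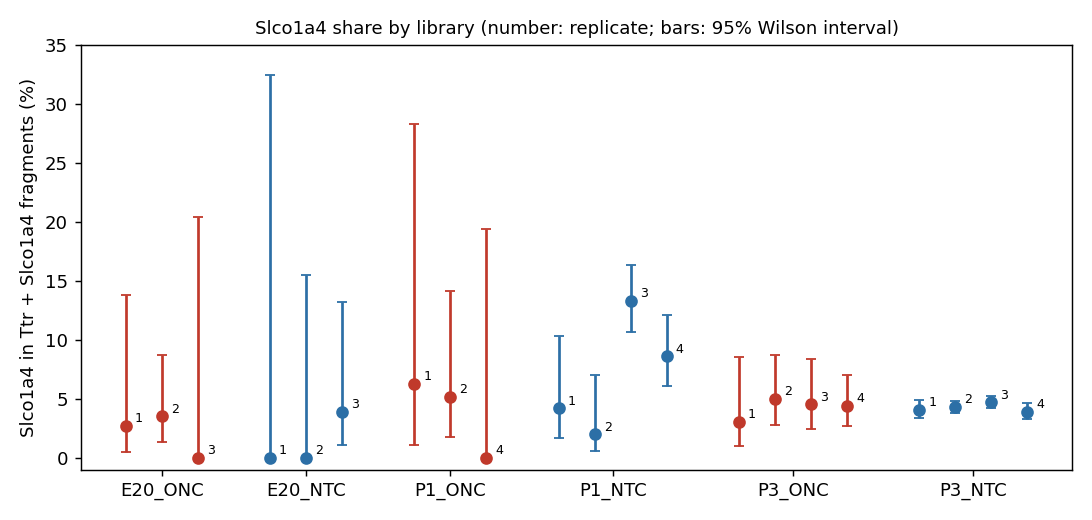
Slco1a4 fragments as a percentage of Ttr plus Slco1a4 fragments in each library by group, with ONC in red, NTC in blue, replicate numbers beside the points and bars for the 95% Wilson interval. All 8 P3 libraries lie between 3.03% and 5%, and P1_NTC replicates 3 and 4 stand higher, at 13.3% and 8.61%.

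Each of the pair was the gene most like the other. Over the 21 libraries, log2(CPM + 0.5) of Ttr and Slco1a4 had a Pearson r of 0.96 and a Spearman rho of 0.97, the highest r of 45 genes for both. Next to Ttr came the photoreceptor genes Guca1a (a guanylate cyclase activator, r 0.85), Gngt1 (the rod transducin gamma subunit, 0.83) and Nrl (the transcription factor of rods, 0.82). Next to Slco1a4 the same 3 genes followed, at r of 0.80, 0.77 and 0.75. Libraries of 1 group share age and treatment, which enter all these correlations. With the group means taken out, Ttr and Slco1a4 still had an r of 0.83 (rho 0.87). After them came Sall3, a transcription factor known in cones and horizontal cells, at 0.73 with Ttr and 0.77 with Slco1a4, then Guca1a at 0.62 and 0.74 and Gngt1 at 0.62 and 0.70. The correlations describe these libraries only, and both values of a library share its depth.

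The photoreceptor genes that came closest across libraries were not among the edgeR calls at P3. Of 5 photoreceptor genes (Cnga1, Impg1, Gngt1, Guca1a and Nrl), 0 were called at P3 by edgeR, and the median log2 fold change was -0.80. DESeq2 called 2 of them lower, Gngt1 and Guca1a, and the same genes were under 0.05 in edgeR before adjustment. The log2 fold changes were -1.53 for Gngt1, -1.30 for Guca1a and -0.74 for Nrl. Their summed level ran from 176 to 404 FPKM in P3_ONC, against 274 to 790 FPKM in P3_NTC. At P1 the sum was 29.4 to 37.5 FPKM in P1_ONC and 44.4 to 56.7 FPKM in P1_NTC, with Nrl called lower and Impg1, an interphotoreceptor matrix component, called higher. Nrl made most of this sum, at 24.71 to 31.66 FPKM in P1_ONC and 41.09 to 45.28 FPKM in P1_NTC. The median log2 fold change of the 5 genes at P1 was 0.24, so the sum does not describe the list. At E20 the sum was 9.7 to 12.6 FPKM in E20_ONC and 13 to 27.6 FPKM in E20_NTC, with Nrl called lower (-0.87) and the other 2 genes tested not called. Here too Nrl made most of it, at 8.464 to 11.25 FPKM in E20_ONC and 11.89 to 25.45 FPKM in E20_NTC. The part of photoreceptor RNA in the results for Ttr and Slco1a4 was not tested.

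Of 11 genes listed for the handling of thyroid hormone and retinoids, 2 are among the genes analysed here. They are Dio3os, the antisense RNA of the gene for thyroid hormone deiodinase type 3, and Aldh1a3, a retinaldehyde dehydrogenase that makes retinoic acid. Whether the counts used strand is not given, so reads of Dio3os and of its sense partner Dio3 cannot be told apart. At P3, 0 of the 2 were called after ONC by edgeR or DESeq2 and 0 had an unadjusted p under 0.05, with log2 fold changes of 0.05 for Dio3os and 1.22 for Aldh1a3. Dio3os was lower in P1_ONC than in P1_NTC (-0.85) and lower in E20_ONC than in E20_NTC (-1.55), whereas Aldh1a3 was at -0.25 at P1 and 0.07 at E20 and was not called. Both ran against Ttr and Slco1a4 with age, being called lower in P3_ONC than in P1_ONC.

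Cryaa, which encodes the lens crystallin alpha A, was higher after ONC at P1, where the pair was lower, and higher at E20, where no change of the pair was detected. It had 5, 2221, 1965 and 312 fragments in P3_ONC, against 8, 383, 64 and 70 in P3_NTC. At P1 it had 333, 718 and 128 fragments in P1_ONC, against 7, 1, 9 and 47 in P1_NTC. At E20 it was near the limit of detection, with 1, 5 and 4 fragments in E20_ONC, against 0, 1 and 0 in E20_NTC. Its log2 fold change was 4.56 at P1 and 3.07 at E20, both called, and 3.28 at P3, called by DESeq2 and not by edgeR. P3_ONC replicate 1 had the lowest Ttr, the lowest Slco1a4 and the lowest Cryaa of its group. The part of lens RNA in the results for the pair was not tested. Mlc1 and Pax2, listed for the optic nerve head, summed to 3.61 to 5.58 FPKM in P3_ONC and 1.58 to 11.8 FPKM in P3_NTC, with 0 of 2 called at P3 or at P1 by edgeR or DESeq2 and 0 at an unadjusted p under 0.05. At E20 both were called lower (log2 fold changes of -3.48 for Mlc1 and -1.95 for Pax2), and their sum was 0.153 to 0.554 FPKM in E20_ONC, against 0.776 to 2.66 FPKM in E20_NTC. The part of optic nerve head RNA in the E20 values of Ttr and Slco1a4 was not tested.

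The spread within P1_NTC, a Ttr coefficient of variation of 72.3%, went with detection of Kdm5d, whose Y-linked transcript marks the likely sex of a retina. P1_NTC replicates 1 and 2 had 666 and 658 fragments of Kdm5d, and replicates 3 and 4 had 0 and 1. The libraries without Kdm5d averaged 18.6 FPKM of Ttr, against 4.53 FPKM in those with it, and 0.451 FPKM of Slco1a4, against 0.0272 FPKM. Guca1a at 6.25 against 1.77 FPKM, Gngt1 at 2.94 against 1.32 FPKM and Sall3 at 14.6 against 6.64 FPKM were split the same way. Nrl hardly differed, at 42.38 and 45.28 FPKM in the libraries without Kdm5d and 41.09 and 41.95 FPKM in those with it. In E20_NTC, the 1 library without Kdm5d had 2.67 FPKM of Ttr, against a mean of 0.703 FPKM in the others. At P3 the direction was not seen, as P3_ONC replicate 1, with 1 fragment of Kdm5d, had the lowest Ttr of its group. With 1 or 2 libraries a side, these are values with no test.

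Within classes of Kdm5d detection, the pair was lower after ONC at P1 and P3. Among P3 libraries with Kdm5d, Ttr averaged 13.1 FPKM in 3 P3_ONC libraries and 243 FPKM in 4 P3_NTC libraries, an 18.5-fold difference, and Slco1a4 averaged 0.121 and 2.11 FPKM, a 17.4-fold difference. Among P1 libraries with Kdm5d, Ttr averaged 0.756 FPKM in P1_ONC and 4.53 FPKM in P1_NTC (5.99-fold, 2 libraries each). In those without it, Ttr had 2.58 FPKM in the 1 P1_ONC library and averaged 18.6 FPKM in the 2 P1_NTC libraries (7.19-fold). Slco1a4 differed 5.56-fold and 16.8-fold in these classes, in the same direction. These folds rest on 1 and 0 fragments in the P1_ONC libraries with Kdm5d and 3 in the P1_ONC library without it. At E20 without Kdm5d, the 3 E20_ONC libraries averaged 3 FPKM of Ttr and the 1 E20_NTC library had 2.67 FPKM, which is 1.13-fold higher in E20_ONC. With Kdm5d detection as a covariate in the fit of the P1 libraries, Ttr had a log2 fold change of -2.70 (SE 0.28, edgeR adjusted p = 1.95e-05). The spread of Ttr within P1_NTC had been seen to go with this covariate, and each class holds 1 or 2 libraries of a group.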

How the data were processed

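The authors selected polyadenylated RNA, sequenced paired ends of 150 bases, aligned them to mm10 with HISAT2 2.0.5 and made counts per gene with featureCounts 1.5.0-p3. The strand setting is not given in the sources used here. The counts as deposited are whole fragments, and the FPKM values as deposited divide them by gene length and by all assigned fragments. The tables hold 51 entries for 46 genes, 5 being repeats, used once. Fold changes and p-values of the authors were not used. Library size was the total implied by counts, FPKM and length.

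Comparisons were fitted with edgeR 4.0.16 (R 4.3.3, quasi-likelihood F test, two-sided, common dispersion, no abundance trend) on genes that reached 10 counts over all libraries of the comparison. Interactions were called at an adjusted p under 0.1. The standard error is the log2 fold change over the square root of F. Shares were compared by exact permutation tests. Alternatives were TMM factors, DESeq2 1.42.0, 2 filters, 1 fit of all 6 groups, limma 3.58.1 on log2(FPKM + 0.1) and log2(FPKM + 1), the replicate number as a block, Kdm5d detection (more than 10 fragments) as covariate, other forms of the share, and each library left out. Tables were made in Python 3.11.15 with scipy 1.17.1, pandas 2.3.3 and numpy 2.4.6, and figures with matplotlib 3.10.9.

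Ttr and Slco1a4 are named in every comparison, beside the 5 genes most like each by Pearson r over genes with at least 10 counts in all, and Cryaa and Kdm5d where they move with a result. A gene that this rule names is not reported here, and list values were computed without it. Other genes were named after their values were seen. The members and the gene lists were chosen with earlier results of these data known.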

Additional observations from a re-analysis of the deposited data

Results flagged for a closer look

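Flagged here were 3 interaction terms between ONC and age, because edgeR called them. Each contains the rise with age in NTC retinas for which the study picked both genes, so the values are a description and not independent evidence of a difference. For Ttr the effect at P3 less that at E20 was -5.61 on the log2 scale, with log2 fold changes of -4.46 at P3 and 1.15 at E20. For Slco1a4 the same difference was -5.74. For Ttr the effect at P1 less that at E20 was -4.23, and its call held in 7 of 13 omissions of 1 library. The E20 libraries hold 161 fragments of Ttr in E20_ONC and 78 in E20_NTC, and 5 and 2 fragments of Slco1a4.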

How the results depend on the processing

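Of 202 alternatives to 25 results, 190 were counted as unchanged, as were 199 of 221 omissions of 1 library. For fold changes, unchanged means that direction and call were kept. For the share comparisons, none of which was called, it means only a move smaller than the larger group SD. The P3 share difference changed sign among its omissions, at -0.25 to 0.41 points. The P3_ONC to P3_NTC differences in level of both genes held under all alternatives and omissions. They were -4.73 to -4.21 for Ttr and -4.71 to -1.42 for Slco1a4 over the alternatives that kept all libraries. At P3, DESeq2 called 4 genes lower, against 2 by edgeR, the others being Gngt1 and Guca1a. With limma on log2(FPKM + 1), Slco1a4 lost its call in P1_NTC against E20_NTC (0.27), P3_ONC against P1_ONC (0.12), P3_ONC against E20_ONC (0.11) and P1_ONC against P1_NTC (-0.27, or -1.21 on log2(FPKM + 0.1)), because most of its values lie under the constant added. With Kdm5d detection as covariate, P3_ONC against E20_ONC gave 0.60 for Ttr and 0.58 for Slco1a4, both not called. With DESeq2 the Slco1a4 interaction of P1 and E20 was called (-5.75), and that of P3 and P1 turned sign (0.00). TMM factors moved the median log2 fold change of all genes by -0.39 (E20_ONC against E20_NTC) to 0.28 (P1_ONC against E20_ONC) and DESeq2 by -0.29 to 0.12, with no call of the pair lost. The cause of the other changes was not tested.

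The replicate number was not used as a block, since only 3 of 10 same-numbered pairs had deviations correlated over 0.1 (-0.75 to 0.68). As a replicate block it brought calls for Ttr in P1_ONC against E20_ONC (-1.29) and E20_ONC against E20_NTC (1.18), and ended that of Slco1a4 in P1_ONC against P1_NTC (-2.44, adjusted p = 0.344). It changed no other call.

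Leaving out 1 library gave -1.98 to -0.01 for Ttr in P1_ONC against E20_ONC (called without P1_ONC replicate 2), 1.42 to 2.99 for Ttr and 1.83 to 3.94 for Slco1a4 in P3_ONC against E20_ONC, -5.38 to -3.10 for Slco1a4 in P1_ONC against P1_NTC, -5.17 to -3.11 for Ttr in P1 against E20 effects, -8.37 to -4.18 for Slco1a4 in P3 against E20 effects, and -1.33 to 0.94 for Slco1a4 in P3 against P1 effects (above 0, at 0.11, 0.13, 0.94, 0.17 and 0.06, without P1_NTC replicates 1 or 2, P1_ONC replicate 2, P3_NTC replicate 3 or P3_ONC replicate 1). Depth limits Slco1a4 at E20 and in P1_ONC, where a library holds 0 to 4 fragments.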
